A study of Mus musculus with 4 samples.

Results

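Ephrins, Eph receptors, semaphorins, plexins and neuropilins, the cell-surface and secreted proteins that steer growing axons and sort cells, were followed across 4 arrays of mouse embryonic stem (ES) cells with and without the Polycomb proteins Ring1A and Ring1B. The members were taken by name: every probe set annotated to exactly 1 of 41 listed gene symbols, on all 4 arrays after scaling. Of the 41 genes, 40 were found on the array, among 18193 genes in all, and they were covered by 99 probe sets; no probe set was named Ephb2 here. The rule uses gene names and no measured value.

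Ephrins are ligands held in the cell membrane, the A type by a lipid anchor and the B type by a membrane-spanning segment, and Eph receptors are the receptor tyrosine kinases that bind them on neighbouring cells, signalling into both cells. Semaphorins are secreted (class 3) or membrane-bound ligands of plexins, and most class 3 semaphorins reach plexins through a neuropilin as co-receptor. Both systems are best known for guiding axons and blood vessels and for setting tissue boundaries. Ring1A (gene Ring1) and Ring1B (gene Rnf2) are the ubiquitin ligase subunits of Polycomb repressive complex 1, which keeps many developmental genes silent in ES cells.

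The 4 arrays hold total RNA of 4 groups with 1 array each. One array was labelled as ES cells with a constitutive knockout (KO) of Ring1B and a second as its control. The other pair was labelled as ES cells with a conditional double KO of Ring1A and Ring1B at day 4 and as the control of that double KO. The design text says that constitutive double KO cells could not be kept in culture, so the deletion was made conditional with OHT. Both controls are labelled wild-type, and the labels do not say whether the double KO control carried any of the targeted alleles or received OHT, nor do they name the cell lines or the growth conditions. With 1 array a group, no test was possible and no difference has a replicate check: every fold below compares 2 arrays, so genotype, culture and hybridisation cannot be told apart.

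Signals are MAS5 intensities on a linear scale, brought on every array to a trimmed mean of 277. Signals under 36.6, the 40th percentile, were set to that floor before a difference was taken. A gene is called measured in a comparison where at least 1 of its 2 arrays was above the floor, and a difference with 1 array at the floor is a bound, written "at least". Differences are log2 of the KO array over its own control unless stated, and a call is a difference of at least 2-fold. Where a gene had several probe sets, the 1 with the highest mean log2 signal stands for it. Signals are compared between arrays for 1 probe set, never between genes. Values on the 4 arrays are given in the order Ring1B control, Ring1B KO, double KO control, double KO.

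The arrays gave no check of the genotype labels. Rnf2 signals of its brightest probe set were 2580, 2775, 2182 and 1986, and Ring1 signals were 146, 164, 44.7 and 55.6. Neither gene was 2-fold apart within a pair, and whether these probe sets lie in a deleted part is not known. Between the control arrays, both labelled wild-type, Ring1 was 3.27-fold lower on that of the double KO. The cause of this difference was not tested. All 10 pluripotency markers examined, among them Pou5f1, Nanog and Sox2, were above the floor on all 4 arrays.

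The sequence just before the gene start is shown for 4 members that the results turn on: Efna3, Efna4 and Sema3e, which were at least 2-fold apart in both KO comparisons, and Plxnd1, the receptor of Sema3e. CpG-rich promoters are the usual sites of Polycomb complexes in ES cells. Each line holds the 250 bases before the start of the gene in RefSeq (GRCm38.p6), read 5′ to 3′ on the strand of the gene, with every CG in capitals.
Efna3: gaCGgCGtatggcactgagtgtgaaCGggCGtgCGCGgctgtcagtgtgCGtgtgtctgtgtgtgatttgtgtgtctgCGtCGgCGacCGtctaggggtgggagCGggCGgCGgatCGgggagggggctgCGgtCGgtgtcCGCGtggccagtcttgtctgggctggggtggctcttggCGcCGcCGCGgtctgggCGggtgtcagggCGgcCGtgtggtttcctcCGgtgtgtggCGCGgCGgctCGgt
Efna4: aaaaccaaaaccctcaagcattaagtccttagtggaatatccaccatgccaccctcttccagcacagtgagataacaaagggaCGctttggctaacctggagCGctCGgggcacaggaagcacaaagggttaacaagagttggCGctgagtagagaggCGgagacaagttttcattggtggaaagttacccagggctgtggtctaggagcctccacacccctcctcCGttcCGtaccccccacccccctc
Sema3e: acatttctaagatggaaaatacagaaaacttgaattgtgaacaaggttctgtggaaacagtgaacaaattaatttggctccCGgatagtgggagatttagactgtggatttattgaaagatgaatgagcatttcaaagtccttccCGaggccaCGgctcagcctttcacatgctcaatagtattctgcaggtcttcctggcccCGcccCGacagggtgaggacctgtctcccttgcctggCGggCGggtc
Plxnd1: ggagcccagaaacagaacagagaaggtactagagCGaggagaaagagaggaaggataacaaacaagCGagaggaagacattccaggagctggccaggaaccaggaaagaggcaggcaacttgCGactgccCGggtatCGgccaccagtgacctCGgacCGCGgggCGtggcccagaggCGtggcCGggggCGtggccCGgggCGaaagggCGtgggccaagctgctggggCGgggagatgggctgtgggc
The Efna3 window lies on the minus strand at chr3:89321769-89322018, the Efna4 window on the minus strand at chr3:89338029-89338278, the Sema3e window on the plus strand at chr5:14025026-14025275 and the Plxnd1 window on the minus strand at chr6:115995006-115995255. RefSeq gives 2 windows for Efna3, and the window with more CG was used.

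The Efna3 window held 31 CG at a GC content of 70.4%, which was 1.14 times the CG number its base composition would give. The Efna4 window held 7 CG at 54.4% GC and a ratio of 0.383. The Sema3e window also held 7 CG, at 48% GC and a ratio of 0.488, and the Plxnd1 window held 16 CG at 64.8% GC and a ratio of 0.668. Efna3 and Efna4, which were called in the same directions, thus had unlike promoters by this measure. CG, which reads the same on both strands, was the only motif searched, and 97.2% of the 14449 genes with a window held at least 1. With CpG-rich defined as over 50% GC and a ratio over 0.6, 19 of the 35 members with a window were CpG-rich (54.3%), beside 7558 of all genes (52.3%). Of the 9 members with a window that were at least 2-fold apart in a KO comparison, 6 were CpG-rich. The median member window held 17 CG and the median over all genes 14. Efnb3, Plxna1, Sema3b, Sema3f and Sema6a had no window in the table used.

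Across the members, signals were more often higher than lower on the Ring1B KO array and more often lower than higher on the double KO array. Against its control, the Ring1B KO array had 32 measured members, of which 19 were higher and 13 lower, with a median log2 difference of 0.34 beside −0.02 over all measured genes. The double KO array had 34 measured members, 11 higher and 23 lower, with a median of −0.44 beside −0.05 over all genes. Of all measured genes, 5939 were higher and 6404 lower on the Ring1B KO array, and 5598 and 6755 on the double KO array. Among genes whose brighter array was under 500, the double KO median was −0.38 over 29 members and −0.17 over all genes. There 20 of the 29 members and 4438 of 7098 genes were lower. In the Ring1B pair these medians were 0.34 and −0.02. In these bulk RNA samples, fewer cells of a type and less RNA per cell cannot be told apart.

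At least 2-fold higher on the Ring1B KO array were 5 of 32 members (15.6%), namely Efna3, Efna4, Efna5, Efnb2 and Sema3f, where 3.54% of all measured genes were. When the probe sets of a gene were averaged, an alternative to reading the brightest, 2 members, Efna4 and Sema3c, were at least 2-fold higher, and Efna3 (0.98), Efna5 (0.54), Efnb2 (0.41) and Sema3f (0.43) lost the call. Sema3e alone (3.12% of the members) was at least 2-fold lower, where 2.61% of all genes were. On the double KO array 6 of 34 members (17.6%) were at least 2-fold lower, namely Efna2, Efna3, Efna4, Efnb1, Sema7a and Plxnd1, beside 9.99% of all genes. Sema3e was the 1 member at least 2-fold higher there, beside 3.02% of all genes. With averaged probe sets Sema3e fell short of 2-fold (0.96). Averaging left 6 members at least 2-fold lower on the double KO array, beside 6.96% of all genes, with Sema7a (−0.91) no longer among them. Most members are dim, and dim genes pass 2-fold more often. Among genes whose brighter array was under 500, 4.53% were higher and 3.11% lower on the Ring1B KO array, where 5 and 1 of 30 such members were. On the double KO array 3.34% of such genes were higher and 13.6% lower, against 1 and 6 of 29 members.

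**Figure D1:**
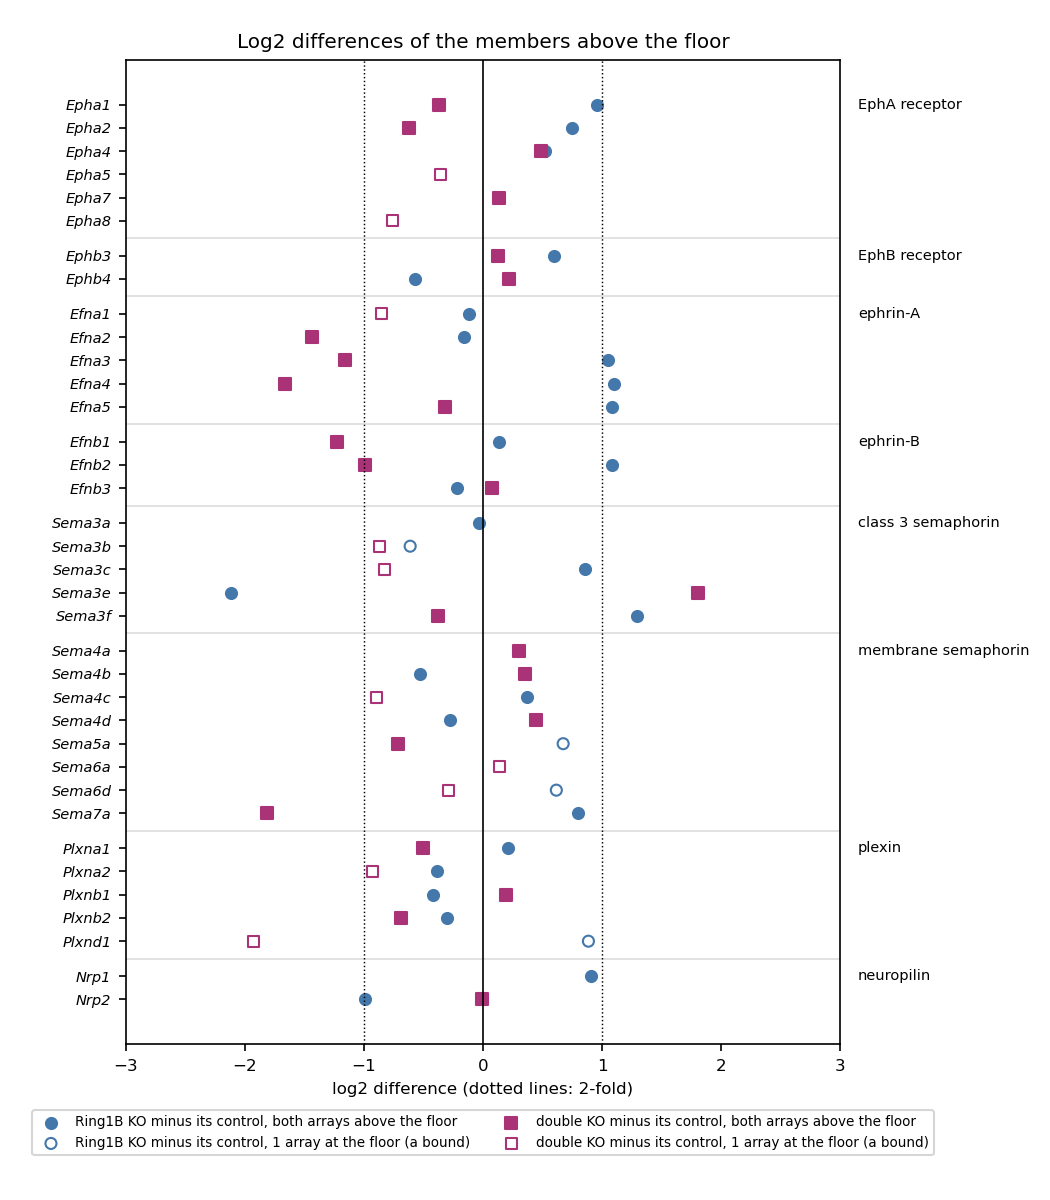
Log2 difference of each measured member, grouped by role, for the Ring1B KO array against its control and the double KO array against its control; filled points are measured on both arrays, open points have 1 array at the floor and are bounds. Dotted lines mark 2-fold. The ephrin-A ligands sit at a median of 1.05 in the first comparison and −1.16 in the second.

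Among the ligands of EphA receptors, Efna3 and Efna4 stood out by being called in both comparisons. Efna3 signals were 141, 292, 292 and 131, so the gene was 2.07-fold higher on the Ring1B KO array than on its control and 2.23-fold lower on the double KO array than on its control. Efna4 signals were 203, 436, 392 and 123, which is 2.14-fold higher in the first comparison and 3.17-fold lower in the second. For both genes the Ring1B KO array and the double KO control array were the high ones, and the Ring1B control and double KO arrays the low ones. The second Efna3 probe set had the same high and low arrays, at 34.5, 68.5, 76.7 and 24.7. Efna4 had a single probe set.

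The other ephrin-A ligands were called in 1 comparison or none. Efna2 signals were 132, 118, 373 and 138, so that its double KO control array was high and the other 3 arrays lay close together. Its differences were −0.16 on the Ring1B KO array and −1.44, or 2.71-fold lower, on the double KO array. Efna5 signals were 38.6, 81.9, 201 and 161, with both arrays of the double KO pair above both of the Ring1B pair. Efna5 was 2.12-fold higher on the Ring1B KO array, from a control just above the floor, and differed by −0.32 on the double KO array. Efna1, the ligand that binds EphA2 in many epithelia, had signals of 63.3, 58.3, 66.1 and 22.6, a difference of −0.12 on the Ring1B KO array and at least 1.81-fold lower on the double KO array. All 5 ephrin-A genes were thus lower on the double KO array than on its control, 3 of them by 2-fold or more, and 3 of the 5 were at least 2-fold higher on the Ring1B KO array.

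**Figure D2:**
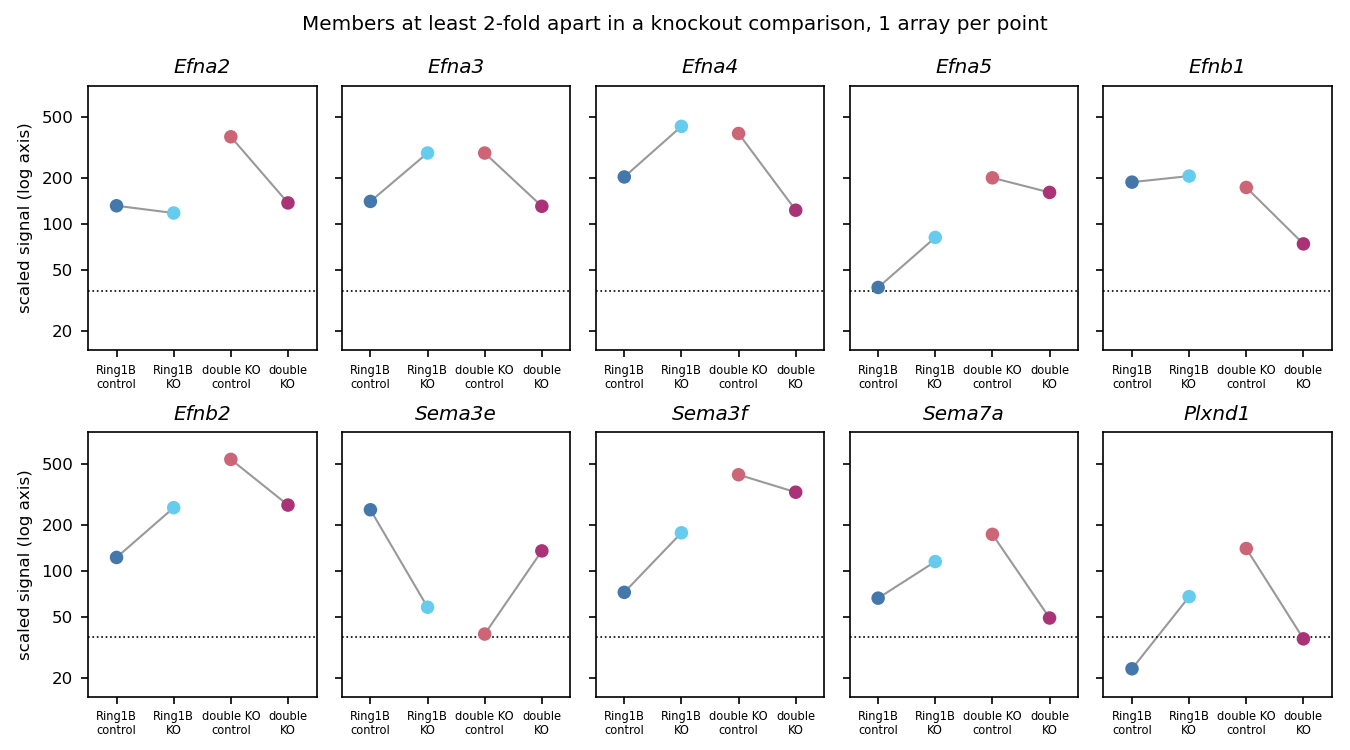
Scaled signal (log axis) on each of the 4 arrays for the 10 members at least 2-fold apart in a KO comparison, 1 panel a gene, with lines joining each KO array to its own control and a dotted line at the floor of 36.6. Efna3 and Efna4 climb in the Ring1B pair and drop in the double KO pair, while Sema3e runs the other way.

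Ephrin-B ligands, which can signal back into the cell that carries them, were led by Efnb2, the ligand best known as a marker of arteries. Its signals were 122, 258, 534 and 268. It was 2.12-fold higher on the Ring1B KO array and 1.99-fold lower on the double KO array, just short of a call, and both arrays of the double KO pair were above both of the Ring1B pair. Efnb1 signals were 188, 206, 174 and 74.3, with the double KO array low and the other 3 arrays alike: 0.13 in the Ring1B pair, and 2.34-fold lower on the double KO array. Efnb3 stayed between 41.2 and 47.9 on all 4 arrays, close to the floor.

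By their brightest probe sets, Eph receptors had no call in either comparison. Of the EphA receptors, 3 were measured in the Ring1B pair by that probe set, and these 3 were higher on the KO array, by 0.52 to 0.96. Epha7 was at the floor there by its brightest probe set, and 2 others of its probe sets were lower on the KO array, by −0.09 and at least 1.33-fold. Epha2, a receptor expressed in ES cells and early embryos, had signals of 877, 1469, 830.03 and 539, with differences of 0.74 and −0.62. Epha1 signals were 51.4, 100.1, 183 and 142, with differences of 0.96 and −0.37. The highest array was thus the Ring1B KO array for Epha2 and the double KO control array for Epha1. Epha4, which binds both ephrin types, was higher on both KO arrays than on their controls by its brightest probe set, by 0.52 and 0.48, but the other 2 measured in the double KO pair were lower, by at least 1.33-fold and at least 1.19-fold. In the double KO pair 6 EphA receptors were measured, from −0.76 (Epha8, a bound) to 0.48, with a median of −0.36. Epha3 was at the floor on all 4 arrays.

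For the EphB receptors, Ephb3 signals were 311, 469, 469.9 and 511 and Ephb4 signals 119, 80.2, 90.7 and 106. Ephb3 was thus lowest on the Ring1B control array, with differences of 0.59 and 0.12, and Ephb4, the receptor of ephrin-B2 in veins, was highest there, with −0.57 and 0.22. Ephb1 and Ephb6 were at the floor on every array. The Efnb2 difference of the Ring1B pair, 1.08, thus had no counterpart of that size among its measured EphB receptors.

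Sema3e, a secreted semaphorin that repels vessels and axons, had the largest differences of the class 3 semaphorins in both comparisons when each gene was read by its brightest probe set. Its signals were 250.02, 57.7, 38.5 and 135. It was 4.33-fold lower on the Ring1B KO array than on its control and 3.50-fold higher on the double KO array than on its control, whose signal was close to the floor. High arrays were the Ring1B control and, below it, the double KO array, the reverse of Efna3 and Efna4. The remaining 3 Sema3e probe sets had signals of 476, 76.7, 24.5 and 43.9; of 158, 52.3, 25.9 and 62.4; and of 226, 34.0, 30.6 and 73.4. All 4 probe sets were lower on the Ring1B KO array, by −2.64 to −1.60, and all 4 were higher on the double KO array, by 0.26 to 1.81, with 3 of these last values bounds because the control was at the floor.

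Plxnd1 encodes plexin D1, to which Sema3e binds directly without a neuropilin. Its signals were 22.8, 67.6, 140 and 35.8, with the first and last under the floor. It was at least 1.85-fold higher on the Ring1B KO array and at least 3.81-fold lower on the double KO array. The ligand and its receptor thus took opposite directions within each pair of arrays. By its brightest probe set, Sema3e was high where Plxnd1 was at the floor, and low where Plxnd1 was above it. Another Sema3e probe set broke this order across pairs, at 76.7 on the Ring1B KO array and 43.9 on the double KO array. The brightest was at 135 on the double KO array and 250.02 on the Ring1B control array, and Plxnd1 was not above the floor on either. This rests on 1 probe set of Plxnd1 and on 4 arrays, and Plxnd1 was picked out beside Sema3e after its values were seen.

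Sema3f, which acts through neuropilin 2, had signals of 72.1, 177, 424 and 326, higher on both arrays of the double KO pair than on both of the Ring1B pair. It was 2.45-fold higher on the Ring1B KO array and differed by −0.38 on the double KO array. Its probe sets disagreed in size: another had signals of 10.4, 36.5, 178 and 17.7. That is at least 4.86-fold lower on the double KO array and at the floor on both arrays of the Ring1B pair. The remaining Sema3f probe set, at 3.77, 3.66, 39.7 and 26.2, was also at the floor on both arrays of the Ring1B pair. The Sema3f call in the Ring1B pair thus rests on its brightest probe set alone. Sema3c, a semaphorin of heart outflow development, had signals of 104, 189, 64.8 and 26.2, which is a difference of 0.86 in the Ring1B pair and at least 1.77-fold lower on the double KO array, so that it was high in the Ring1B pair and low in the other. Sema3b was lower on both KO arrays, at least 1.53-fold on the Ring1B KO array and at least 1.83-fold on the double KO array. Sema3a differed by −0.04 in the Ring1B pair and was at the floor in the double KO pair, and Sema3d was at the floor on all 4 arrays.

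The neuropilins that serve these ligands were not called. Nrp2 signals were 227, 114, 476 and 475, which is 1.99-fold lower on the Ring1B KO array and a difference of −0.00 in the double KO pair, where both arrays were high. Nrp1 signals were 65.9, 123, 22.6 and 27.9, a difference of 0.91 in the Ring1B pair, with both arrays of the double KO pair at the floor. A second Nrp1 probe set gave 202, 199, 21.8 and 4.53, a difference of −0.02 in the Ring1B pair. Of the other 2 probe sets, 1 was higher on the Ring1B KO array by at least 1.26-fold and 1 by at least 1.10-fold. All 4 were at the floor on both arrays of the double KO pair. Sema3f and its co-receptor gene Nrp2 differed in opposite directions on the Ring1B KO array, by 1.29 and −0.99.

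**Figure D3:**
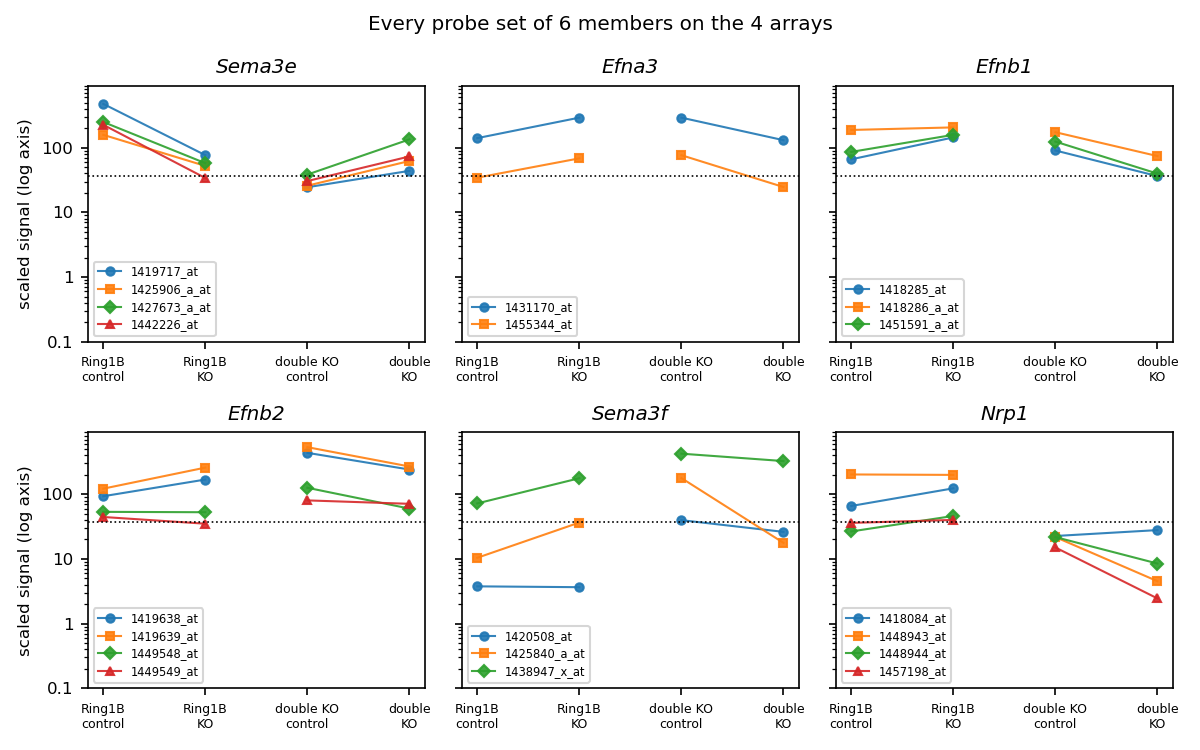
Scaled signal (log axis) of every probe set of 6 members on the 4 arrays, with lines joining each KO array to its own control and a dotted line at the floor. The 4 Sema3e probe sets share their directions within each pair but not their sizes. Those of Efnb2 take opposite directions in the Ring1B pair, and those of Sema3f differ in size. All Nrp1 probe sets lie under the floor in the double KO pair.

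Of the membrane-bound semaphorins, read by their brightest probe sets, only Sema7a, a lipid-anchored semaphorin that also acts through integrins, was called. Its signals were 66.1, 115, 173 and 49.0, with the double KO array lowest and its control highest. It differed by 0.79 on the Ring1B KO array and was 3.52-fold lower on the double KO array. The other 7 had no call. Sema4d, a ligand of plexin B1, had signals of 361, 298, 497 and 679, with differences of −0.28 and 0.45, and Sema4b signals of 312, 217, 153 and 195, with −0.53 and 0.35. Both genes were thus lower on the Ring1B KO array and higher on the double KO array, by less than 2-fold. Sema4c took the directions of Sema7a, with a difference of 0.37 in the Ring1B pair and at least 1.86-fold lower on the double KO array. Medians over the class were 0.37 (7 measured) and −0.07 (8 measured).

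No plexin other than Plxnd1 was called by its brightest probe set. Plxnb2, a plexin B of epithelia and progenitors, had signals of 531, 431, 1304 and 808, with differences of −0.30 and −0.69, and was higher on both arrays of the double KO pair. Plxna1 signals were 402, 467, 494 and 349, with differences of 0.21 and −0.50. Plxnb1, the receptor of Sema4d, differed by −0.42 and 0.20, in the same directions as its ligand. Plxna2 was lower on both KO arrays, by −0.39 on the Ring1B KO array and at least 1.90-fold on the double KO array, where another of its probe sets was 2.64-fold lower. The plexin medians were −0.30 and −0.69.

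All 99 probe sets of the members were also counted, not only 1 a gene. On the Ring1B KO array 64 probe sets were measured, 8 at least 2-fold higher and 4 lower, beside 2.88% and 2.51% of all probe sets with 1 symbol. In the double KO pair 63 were measured, 2 higher and 14 lower, beside 2.88% and 8.37%. Several measured probe sets were available for 20 members in the first comparison and 18 in the second. They took opposite signs for 5 and 4 of these members and lay at least 2-fold apart for 3 and 2, but no member was called in both directions. Members called only by a probe set that was not their brightest were Epha4, Efnb1 and Sema3c, higher on the Ring1B KO array, and Efna1, Efnb2, Sema3f, Sema5a and Plxna2, lower on the double KO array. Efnb1 shows what a choice of probe set does: its brightest differed by 0.13 on the Ring1B KO array, and the others by 0.88 (signals 86.2, 158, 124 and 39.8) and 1.13 (signals 66.2, 144, 90.7 and 36.4). On the double KO array all 3 were lower, by −1.64 to −1.23. For Epha4 the probe sets ranged from 0.52 to 1.72 on the Ring1B KO array, and for Efnb2 from −0.28 to 1.08.

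The KO comparisons share no array and could be set side by side. Of the 30 members measured in both, 21 (70.0%) had opposite signs, 15 of them higher on the Ring1B KO array and lower on the double KO array and 6 the reverse, where 62.0% of all 11615 genes measured in both had opposite signs. The remaining 9 members had the same sign, 3 higher and 6 lower in both. Efna3, Efna4 and Sema3e, 3 of 30 (10.0%), were at least 2-fold apart in opposite directions, beside 2.70% of all genes. The Efna3 and Sema3e calls in the double KO pair were lost under some alternatives, Efna3 at −0.95 with quantile scaling and Sema3e at 0.93 with the values as deposited. No member was at least 2-fold apart in the same direction in both. Across the members Pearson's r was −0.57 and Spearman's rho −0.43, and over all genes −0.46 and −0.37. These are descriptions across genes, which share the same 4 arrays and are not independent replicates.

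**Figure D4:**
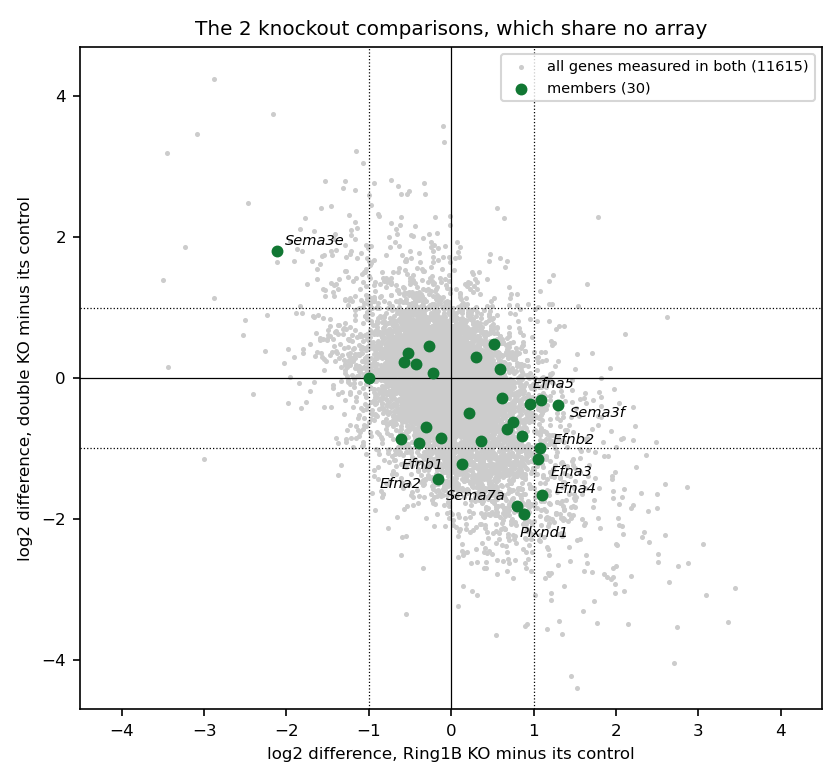
Log2 difference on the double KO array (vertical) against that on the Ring1B KO array (horizontal), each against its own control, for the 30 members (green) and all 11615 genes (grey) measured in both; dotted lines mark 2-fold. Efna3 and Efna4 lie past 2-fold at the lower right and Sema3e at the upper left, within a cloud that slopes down for all genes.

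The order of the 4 arrays shows the same pattern by level. For 8 of the 30 members (26.7%) both the Ring1B KO array and the double KO control array were above the other 2 arrays, beside 16.2% of all genes. These were Efna3, Efna4, Sema4c, Sema5a, Sema6d, Sema7a, Plxna1 and Plxnd1. The reverse order held for Ephb4, Efnb3 and Sema3e, 3 of 30 (10.0%), beside 13.0% of all genes. In these members, each control thus ranked with the KO array of the other pair, at any margin. Some margins were very small: Sema4c was at 68.219 on the double KO control array and 68.2131 on the Ring1B control array. Efnb3 stayed between 41.2 and 47.9, and Sema6d was at the floor on the Ring1B control and double KO arrays.

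The control arrays, both labelled wild-type, differed more than either KO array did from its control in the number of members called. On the double KO control array 10 of 35 measured members (28.6%) were at least 2-fold higher than on the Ring1B control array, beside 12.2% of all genes, and 2 (5.71%) were lower, beside 8.15% of all genes. Sema3f was 5.87-fold higher, Efna5 5.21-fold and Efnb2 4.38-fold, Epha1 3.56-fold and Plxnd1 at least 3.81-fold. Sema3e was 6.49-fold lower. The median over the members was 0.31, beside 0.13 over all genes. This comparison uses the control array of each KO comparison, so its values are not independent of theirs. The sign of this comparison depends on the scaling: with the values as deposited, which were not brought to a common mean, the median was −1.18. In size, the Efna5, Efnb2, Sema3e and Sema3f differences between controls exceeded those in the KO comparisons.

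Efna1, Efna3 and Efna4 are neighbours on chromosome 3 in the RefSeq gene table, with no other protein-coding gene among them; Slc50a1 lies next to Efna1 and Adam15 next to Efna4. The neighbours were looked up after the Efna3 and Efna4 values had been seen. Adam15, a membrane metalloproteinase gene, had signals of 126, 263, 289 and 58.6, which is 2.10-fold higher on the Ring1B KO array and 4.93-fold lower on the double KO array, the same directions within each pair as its neighbour Efna4. Slc50a1, a sugar transporter gene, had signals of 241, 331, 305 and 187, with differences of 0.46 and −0.71 in those directions. Efna1 was not higher in the Ring1B pair. Dpm3, next beyond Slc50a1, was higher on both KO arrays, by 0.60 and 0.60. Dcst1, next beyond Adam15, was at the floor on every array. Opposite signs in the KO comparisons were found for 62.0% of all genes measured in both.

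Few other genes of the pathways were called in the Ring1B pair. Of 9 measured further Eph, semaphorin and plexin genes none was called in the Ring1B pair. In the double KO pair 1 of 8 was, Sema4f, at 3.49-fold lower. Of the 27 measured genes listed as signalling partners of these families, none was called in the Ring1B pair. In the double KO pair 1 (3.70%) was higher, Crmp1 (2.58-fold), which relays semaphorin signals, and 5 (18.5%) were lower. The lower ones were led by the kinase gene Limk1 (2.90-fold), the guanine nucleotide exchange factor gene Farp1 (2.51-fold) and the adaptor gene Nck2 (2.49-fold). The medians over the signalling partners were −0.01 and −0.31.

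Among the netrin, Slit and L1-type guidance genes, 16 were measured in the Ring1B pair, with 1 higher and 1 lower, and 10 in the double KO pair, with 1 higher and 4 lower. Unc5b, a netrin receptor gene that also marks vessels, had signals of 176, 399, 650.1 and 191. It was 2.27-fold higher in the Ring1B pair and 3.41-fold lower in the double KO pair, as Efna3 and Efna4 were. Ntn1, which encodes netrin 1, had signals of 594, 133, 137 and 1837, with the directions of Sema3e within each pair. The Slit ligand genes Slit3 and Slit2 were 2.72-fold and 2.62-fold lower on the double KO array.

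Markers of other cell types also differed between the arrays. The summed signal of 16 fibroblast markers was 12327, 19314, 13539 and 5262, and 13 of the 15 measured in the double KO pair were at least 2-fold lower there, against 0 of 15 lower and 1 higher in the Ring1B pair. On the double KO array 4 of them were at the floor, Col6a2, Pdgfrb, Lum and Fap. Sums over 12 endoderm markers were 4801, 14383, 5240 and 2084, with 7 of 10 at least 2-fold higher on the Ring1B KO array and 5 of 8 lower on the double KO array, where Gata6, Sox7 and Sox17 were at the floor. These sums have the directions of Efna3, Efna4 and Plxnd1 and the reverse of Sema3e in both pairs.

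Mesoderm markers summed to 567, 879, 1282 and 534, trophoblast markers to 2891, 3462, 9839 and 2722, and neural markers to 1932, 1089, 761 and 773. Of these, the mesoderm and trophoblast sums had the Efna3 directions in both pairs, but not all their genes did. In the Ring1B pair 5 measured mesoderm markers were higher and 2 lower. Of the trophoblast markers 7 were higher there and 1, Tfap2c, was called lower (1496 to 692). In the double KO pair 8 mesoderm markers were lower and 2 higher. Of the trophoblast markers 7 were lower there and 1, Ascl2, was higher by 0.72. The neural sum also hides genes that went both ways. In the Ring1B pair 1 of 8 measured neural markers was called lower, Neurod1 (1004 to 137), and 1 higher, Zic1 (at least 6.03-fold). In the double KO pair 2 of 7 were called higher and 2 lower. Endothelial markers summed to 943, 575, 498 and 1361, with Cdh5, Tie1, Emcn, Ptprc and Cd34 at the floor on all 4 arrays. Of the 3 measured, Pecam1 and Tek had the directions of the sum and Esam the reverse (0.40 and −1.30). The pluripotency sum was 58896, 49425, 47188 and 63283, lower on the Ring1B KO array and higher on the double KO array, as Sema3e was. The part of other cell types in the differences of the members was not tested.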

How the data were processed

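Total RNA of mouse ES cells was extracted with Trizol and columns, labelled with biotin and hybridised to 4 Affymetrix MOE 430 2.0 arrays, per the labels' protocols. The authors deposited 1 signal intensity for each of 45101 probe sets on a linear scale, computed with MAS5 per the submitters' processing notes; version, settings and genome build are not given in the sources used here. The deposited 2%-trimmed means were 500.0, 500.0, 160 and 147, so each array was multiplied by a factor (0.554, 0.554, 1.73 and 1.89) that brought it to 277. Signals were floored at the 40th percentile of probe sets with 1 symbol (36.6) and log2-transformed. This presumes a like total signal per array, and the floor shrinks differences of dim genes. The 64 manufacturer's controls were left out of the gene table. Names came from the platform annotation: 34945 probe sets carried 1 symbol, 932 carried several and stayed unnamed, and 34741 matched RefSeq by Entrez identifier, which changed 0 symbols. For each gene the probe set with the highest mean log2 signal was used.

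Samples were grouped by their labels, 1 array a group, so no test was run; the number of arrays, the floor and disagreement between probe sets limit precision. The rule gave array values for each member at least 2-fold apart in a KO comparison, up to 2 further examples a role, and up to 3 genes per direction of each pathway list; other members with values were chosen after these were seen. Members and lists were chosen with earlier results of these data known. Promoter sequences are from RefSeq (GRCm38.p6). Alternatives were the deposited scale, quantile and common-median scaling, other floors, probe sets and folds. Scripts used Python 3.11.15, numpy 2.4.6, pandas 2.3.3 and scipy 1.17.1, and were tested on simulated data.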

Additional observations from a re-analysis of the deposited data

Results flagged for a closer look

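Efna3, Efna4 and Sema3e were at least 2-fold apart in both knockout comparisons in opposite directions. The Ring1B difference minus the double KO difference was 2.21 on the log2 scale for Efna3, 2.77 for Efna4 and −3.92 for Sema3e. With 1 array a group, the difference between the comparisons was not tested. Not all of these calls held under the alternatives. Efna3 was at 0.98 in the Ring1B pair with averaged probe sets, and at −0.95 (quantile) and −0.96 (common median) in the double KO pair. Sema3e in the double KO pair was at 0.93 with the values as deposited and 0.96 with averaged probe sets. It was at 0.26 without probe sets whose names end in _s_at, _x_at or _a_at. Under the higher floor (60th percentile) Sema3e was at 0.09 in the double KO pair and −0.98 in the Ring1B pair. Efna4 kept both calls under the alternatives that gave it a value. Its only probe set has a name ending in _a_at and was left out in 1 of them.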

How the results depend on the processing

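No paired analysis was possible because each group has 1 array. The medians of the members in the KO comparisons kept their sign under all alternatives run, including genes under a signal of 500, which was added after seeing the data (0.21 to 0.39 on the Ring1B KO array, −0.50 to −0.29 on the double KO array). The control median of 0.31 turned to −1.18 with the values as deposited (all genes −1.32). There 0 of 33 measured members were higher and 19 lower between controls, beside 0.704% and 65.2% of all genes. On the double KO array 0 of 26 were higher, beside 2.17% of all genes. Quantile scaling gave 2 of 32 lower on the Ring1B KO array, beside 2.56% of all genes. Common-median scaling gave 1 of 35 lower between controls, beside 6.08% of all genes. With the floor at the 20th percentile (11.9), 2 members were lower on the Ring1B KO array, 3 higher and 12 lower on the double KO array and 4 lower between controls, where the shares of all genes were 4.80%, 5.70%, 13.3% and 10.7%. At the 60th percentile (127), 3 were higher and 0 lower on the Ring1B KO array, 0 higher and 3 lower on the double KO array, and 6 higher and 1 lower between controls (all genes 1.85%, 1.67%, 2.38%, 5.78%, 10.4% and 6.75%), with fewer members measured. Averaging probe sets gave 2 higher on the Ring1B KO array, 0 higher on the double KO array and 1 lower between controls (all genes 2.56%, 2.16% and 6.59%). Leaving out probe sets with names ending in _s_at, _x_at or _a_at gave 0 higher on the double KO array (all genes 3.27%). At 1.5-fold, 14 were higher and 3 lower on the Ring1B KO array, 16 lower on the double KO array and 5 lower between controls, beside 9.56%, 9.10%, 19.7% and 17.0% of all genes.

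Among the 10 members named, no called difference reversed, and 113 of the repeats kept their side of 2-fold. These 113 include uncalled differences that stayed uncalled. In 17 repeats a call was lost and in 4 an uncalled difference became a call. Averaging probe sets lost 6 of the calls, and the floor at the 60th percentile also lost 6. The uncalled Efna2 difference of the Ring1B pair changed sign, from −0.16 to 0.03, with averaged probe sets. Over all genes, 373 were higher and 1234 lower on the double KO array, against 478 and 997 with quantile and 609 and 979 with common-median scaling, which moved the median gene from −0.02 to 0.16. The causes were not tested beyond what each alternative changes. Signals near the floor, as those of Plxnd1, Efna5 and the Sema3e double KO control, limit what could be measured.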
